A study of Homo sapiens with 14 samples.

Results

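Of the 14865 regions of the genome bound by NF-κB in L1236 cells, 9262 lay more than 10 kb from the closest transcription start site (TSS), and 1784 of these carried an excess of p50 over p52 reads. These 1784 distal p50-skewed regions are described here. They were chosen by 2 deposited values, the distance to the TSS and a read ratio. The read ratio is the log2 of the region's share of all p50 reads over its share of all p52 reads, with 1 read added to each count, and regions with a ratio of at least 0.7 were selected. A ratio of this size was found in 29.1% of all regions and in 19.3% of the distal regions, and nothing is read from these shares because the ratio made the choice. For comparison, 4710 distal regions with a ratio between -0.7 and 0.7 are called balanced, 2768 distal regions with a ratio of -0.7 or lower are called p52-skewed, and 1879 regions up to 1 kb from a TSS with a ratio of at least 0.7 are called promoter p50-skewed regions.

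L1236 is an established cell line from Hodgkin lymphoma, a B cell-derived malignancy, and the cells carried no labelled treatment. After fixation with formaldehyde, chromatin was precipitated with an antibody to p50, p52, RelB or RelA in 2 replicates each, and 6 libraries of input DNA served as background. Both p50 replicates used the same goat antibody, whereas the p52 replicates used a mouse and a rabbit antibody, so that a difference between the subunits and a difference between their antibodies cannot be told apart. The comparison of subunits addressed whether canonical and non-canonical NF-κB dimers bind different regions.

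NF-κB proteins bind κB sites in promoters and enhancers as homodimers or heterodimers. The p50 and p52 subunits arise from the precursors p105 and p100 and lack a transactivation domain, which RelA and RelB carry. The p50-RelA dimer is typical of the canonical pathway and the p52-RelB dimer of the non-canonical pathway, and homodimers of p50 are known as repressors or, with the cofactor BCL3, as activators.

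The regions of the whole union held 1654137 p50, 1810792 p52, 470788 RelB and 315151 RelA reads. The counts came from merged replicates, so each region has 1 value for a subunit and no error between replicates. No test over samples was possible and no p-values are given. Medians are given with 95% order-statistic intervals and shares with 95% Wilson intervals, and both cover only the scatter and the counting error over regions. Values of p50 and p52 in these regions, including their calls, describe how the regions were chosen. RelB and RelA values, width, overlap with a gene body and neighbouring regions were not used for the choice, whereas the distance to the TSS was. Width is still tied to the calls, because the authors joined overlapping peaks of different subunits into a larger region.

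The p50-skewed distal regions had a median read ratio of 1.17, with a range from 0.70 to 4.17. The ratio was at least 1 in 1191 regions, at least 2 in 158 and at least 3 in 13. They held a median of 70 p50 reads and 33 p52 reads. Per kb of region the median was 105.7 p50 reads (103.8 to 108.2) against 92.98 (91.35 to 95.04) in the balanced regions, and 48.7 p52 reads (47.3 to 49.9) against 107.0 (104.9 to 109.2). These densities describe the choice, which set the ratio of p50 to p52 in both classes. By counting error alone, the 95% interval of the ratio lay above 0 in 1739 regions and above 0.7 in 729. This interval does not allow for the choice of the regions by the same ratio, so these counts are descriptive and no support for the skew.

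**Figure D1:**
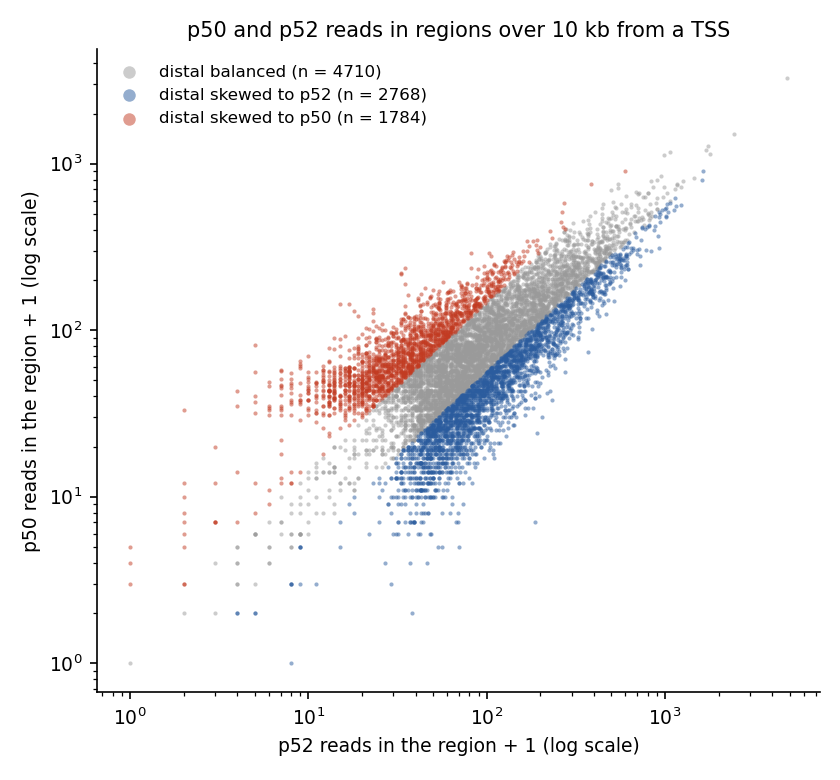
Number of p50 reads against number of p52 reads, each plus 1 and on log scales, in the 9262 distal regions, with 1 point for each region. The 1784 p50-skewed regions (red) form the upper edge of a continuous cloud, with a median of 70 p50 and 33 p52 reads, and no gap separates them from the 4710 balanced regions (grey).

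The choice cut through a continuous distribution. The 3 members nearest to the threshold all had a ratio of 0.700858. One of them, 37749 bp upstream of *ECE1*, a gene for an endothelin-processing enzyme, held 97 p50 and 65 p52 reads, and the other two, upstream of *APBB1IP* and inside *ARHGEF7*, held 48 p50 and 32 p52 reads each. The 3 distal regions just outside all had a ratio of 0.699908, with 137 p50 and 92 p52 reads in a pair of them and 45 and 30 in the remaining one.

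By the authors' peak calls, 1721 members (96.5%) were called for p50 against 67.2% of all distal regions, and 524 (29.4%, 27.3 to 31.5) were called for p52 against 78.3%. The most frequent pattern was p50 alone, in 1164 members (65.2%), followed by p50 with p52 in 464 (26.0%). The distal regions called for p50 alone numbered 1456, of which 79.9% were members. The 522 members called for both had a median p50 fold enrichment over input of 25.1 (23.9 to 26.3), compared with 13.3 (13.0 to 13.7) in the 1199 called for p50 and not p52. Since the ratio is bounded by the choice, a member with few p50 reads also had few p52 reads, with medians of 58 and 25 in those without a p52 call and 122 and 63 in those with both calls. Where both were called, the p50 and p52 summits lay a median of 6 bp apart (5 to 7), and 10 bp (9 to 11) apart in the balanced regions.

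The p50 peaks of the members were of moderate height. Their median fold enrichment was 15.4 (14.97 to 15.8) compared with 17.4 (16.96 to 17.8) in balanced regions called for p50. The table holds 2 p50 signal values, 1 for each replicate, and these placed the median member at the 45.6th and the 38.6th percentile of all p50 regions. Across the 1721 members called for p50, these signal values correlated with a Spearman correlation of 0.61 and a Pearson's r on the log10 scale of 0.69, which describes regions of the same libraries, compared with 0.77 and 0.79 in the 3487 balanced regions. For p52 the 2 values come from different antibodies, and the 524 members called for p52 stood at median percentiles of 35.3 and 30.7 of the p52 regions. The rule used the same p52 libraries, so these low percentiles describe the choice and are no independent support from 2 antibodies.

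The 10 members with the highest p50 fold enrichment, between 53.9 and 64.4, held 202 to 751 p50 reads and 34 to 385 p52 reads. Of these, 9 were also called for p52, 4 for RelB and 3 for RelA, and 5 lay inside a gene. The strongest was on the X chromosome from 119286970 to 119287884 (hg18), inside a gene and 18335 bp from a TSS. It held 273 p50, 150 p52, 16 RelB and 10 RelA reads, and neither RelB nor RelA was called there. The second, on chromosome 6 from 166528000 to 166529150, lay 25879 bp upstream of its closest gene and held 239 p50, 134 p52, 14 RelB and 14 RelA reads. A region on chromosome 3 from 110283229 to 110283872 held 235 p50, 81 p52, 19 RelB and 25 RelA reads and was called for all 4 subunits. The widest of the 10, with 3189 bp on chromosome 19 from 19356360 to 19359548, held 751 p50, 385 p52, 157 RelB and 51 RelA reads and was called for p50, p52 and RelB. The only one of the 10 without a p52 call lay 117431 bp from *ATBF1*, which encodes a zinc finger and homeodomain transcription factor, on chromosome 16 from 71255950 to 71256854. It held 235 p50 against 34 p52 reads, with 7 RelB and 14 RelA reads, and its read ratio was 2.88 (counting interval 2.40 to 3.48).

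**Figure D2:**
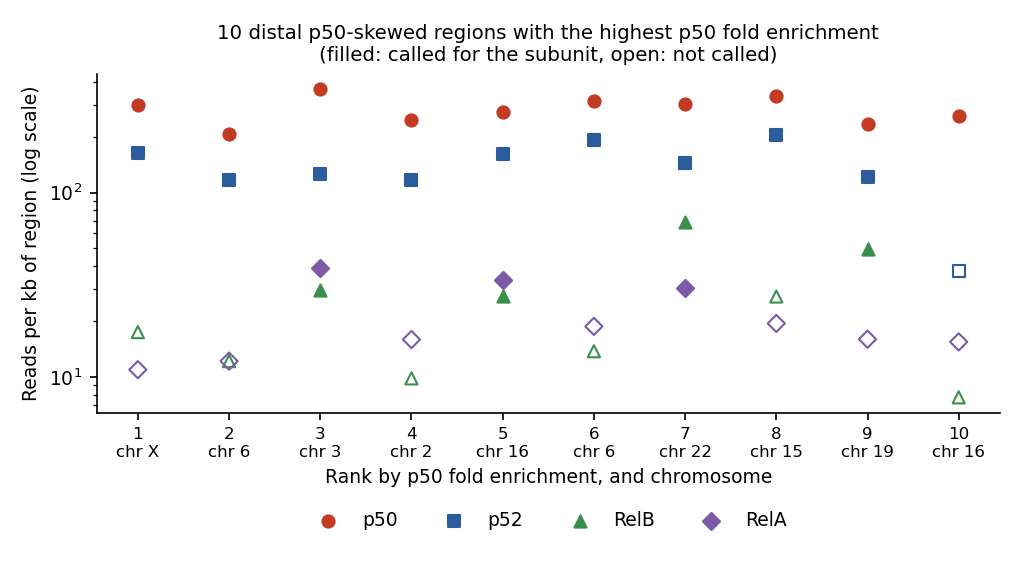
Reads per kb (log scale) of p50, p52, RelB and RelA in the 10 distal p50-skewed regions with the highest p50 fold enrichment, ordered by rank, with filled symbols where the authors called the subunit and open symbols where they did not. p50 lies above p52 in each, RelB is called in 4 and RelA in 3, and the region at rank 10 has no p52 call.

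The members with the most extreme read ratios were a different set, with weaker peaks. The 10 highest ratios, from 3.16 to 4.17, rested on 32 to 142 p50 reads and 1 to 16 p52 reads, and the p50 fold enrichment was between 10.4 and 44.5. Each had a p50 call, and 0 of the 10 had a call of another subunit. The highest ratio, on chromosome 9 from 128279492 to 128279921, came from 32 p50 reads and 1 p52 read, and its counting interval ran from 2.55 to 10.5. The second, on chromosome 12 from 109071254 to 109071667, had 80 p50 and 4 p52 reads at a fold enrichment of 25.2. A pair of regions combined an extreme ratio with a strong peak. One, on chromosome 14 from 23127940 to 23128445, held 142 p50 and 14 p52 reads at a fold enrichment of 43.8, and the other, on the X chromosome from 130639338 to 130640101, held 142 and 16 at 44.5. In these 10 regions RelB had 3 to 7 reads and RelA 1 to 10.

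RelB, the partner of p52 in the non-canonical pathway, was rarely called in the p50-skewed distal regions. It was called in 147 members (8.24%, 7.05 to 9.61), against 27.1% of all distal regions, 32.5% (31.2 to 33.9) of the balanced and 30.1% (28.4 to 31.9) of the p52-skewed regions. The promoter p50-skewed regions stood between, with 14.5% (13.0 to 16.2). Of the 147, only 91 were also called for p50, so among the members called for p50 the share was 5.29%. The RelB read density of the members was lower as well, with a median of 13.1 reads per kb (12.5 to 13.6) compared with 23.5 (22.9 to 24.1) in balanced and 22.3 (21.7 to 23.1) in p52-skewed regions. On the log2 scale the ratio of the medians of members and balanced regions was -0.85.

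At equal p50 fold enrichment the members still had fewer RelB reads per kb. At a given p50 level the rule separates the classes by p52, so this comparison describes regions with less against regions with more p52 relative to p50. Among regions with a fold enrichment of 10 to 20, the median was 11.8 RelB reads per kb (11.1 to 12.4) in 1040 members and 19.8 (19.0 to 20.7) in 1700 balanced regions. At 30 or more, it was 16.4 (13.8 to 18.8) in 195 members, 37.7 (35.9 to 40) in 658 balanced and 57.5 (50.9 to 66.5) in 126 p52-skewed regions. RelB was called in 14.9% (10.6 to 20.5) of these strong members, in 62.3% (58.5 to 65.9) of the balanced and in 81.0% (73.2 to 86.9) of the p52-skewed regions. Among strong p50 regions, the RelB call was thus the exception in the members and the rule in the other distal regions. These members were low in p52 only relative to their p50. Width was not matched, with medians of 797 bp in these members, 1195 bp in balanced and 1264 bp in p52-skewed regions. A p52 call was present in 88.2% of these members and in 100% of both other classes.

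At equal p52 read density the picture depended on the density and on the measure. Among regions called for p50 with 60 to 80 p52 reads per kb, the median RelB density was 14.5 (12.9 to 15.7) in 307 members and 15.3 (14.5 to 16.1) in 504 balanced regions. With 40 to 60 p52 reads per kb the values were 12.4 (11.7 to 13.4) and 11.8 (10.9 to 13.4), and with 80 to 120 they were 17.8 (15.6 to 20.3) and 19.4 (18.7 to 20.3). The intervals of both classes overlapped in these 3 bins. With 120 or more p52 reads per kb, members had 21.8 (17.5 to 27.1) and balanced regions 33.5 (32.2 to 34.5). This last bin held 87 of the members and 1772 of the 3487 balanced regions called for p50. The share called for RelB was lower in members in each of the 4 bins, at 5.17% against 10.99%, 6.19% against 14.5%, 6.51% against 19.2% and 20.7% against 46.95% from the lowest to the highest density. The intervals of these shares overlapped only in the lowest of the 4 bins, at 3.60 to 7.37 against 7.30 to 16.2. At 60 to 80 p52 reads per kb the members were also narrower, with a median width of 625 bp against 828.5, and held a median of 9 RelB reads against 13. The p52 read density enters the rule, so this comparison describes the regions and is no independent support for a link between p52 and RelB.

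**Figure D3:**
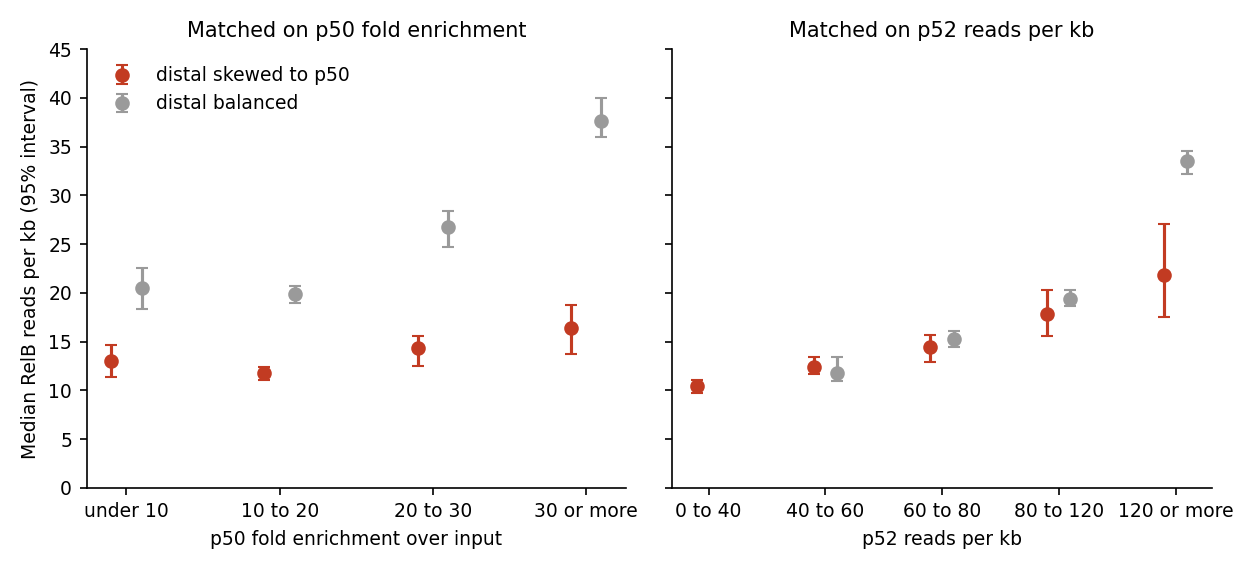
Median RelB reads per kb with 95% intervals in p50-skewed (red) and balanced (grey) distal regions called for p50, by p50 fold enrichment (left) and by p52 reads per kb (right). RelB is lower in the members in every bin on the left, for example 16.4 against 37.7 at a fold enrichment of 30 or more, whereas the intervals overlap between 40 and 120 p52 reads per kb on the right; balanced regions under 40 are not drawn because only 8 were called for p50.

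Within the members, RelB calls became fewer along the read ratio. From the lowest to the highest quartile of the ratio, RelB was called in 13.0% (10.2 to 16.4), 10.99% (8.41 to 14.2), 5.56% (3.79 to 8.07) and 3.39% (2.07 to 5.52), and the median width fell from 708.5 to 554 bp. The median RelB density was 14.7 (13.3 to 16.4), 14.9 (13.7 to 15.8), 13.0 (11.8 to 14.5) and 10.5 (9.72 to 11.6) reads per kb, clearly lower only in the highest quartile. The ratio belongs to the rule, and along it p52 calls fell from 53.4% to 6.56% and median p50 reads from 79 to 58. Members with a RelB call and a p50 call were wider, at a median of 1019 bp (847 to 1092), than the 632 bp of all members. The strongest RelB peak, on chromosome 1 from 26819230 to 26820992 between *RPS6KA1*, a gene for a ribosomal S6 kinase, and *ARID1A*, a gene for a subunit of the SWI/SNF chromatin remodelling complex, reached a RelB fold enrichment of 28.8 and held 391 p50, 225 p52, 155 RelB and 44 RelA reads. It was called for all 4 subunits. The next, on chromosome 22 from 19434361 to 19435217, reached 19.98 with 258 p50, 124 p52, 59 RelB and 26 RelA reads. Of the 147 RelB peaks in members, 23 had a fold enrichment of 10 or more.

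A small group of 63 members had no p50 call. Their counts were low, with a median of 22 p50 and 11 p52 reads, and 56 of them were called for RelB, 55 of these for RelB alone. Those 56 held a median of 53.9 RelB reads per kb (44.2 to 69.9), at only 30.4 p50 (22.2 to 45.9) and 15.04 p52 reads per kb. In these regions a high ratio was thus reached without a p50 call. At the median the label as p50-skewed rests on few reads, although the p50 reads of the 63 members ran from 2 to 161.

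RelA, the partner of p50 in the canonical pathway, was called in 20 members (1.12%, 0.727 to 1.73), against 3.08% of all distal regions and 4.01% (3.49 to 4.61) of the balanced regions. The median RelA density was 12.6 reads per kb (12.2 to 12.8) compared with 15.8 (15.4 to 16.1), a log2 ratio of -0.33. By the choice, members differed from balanced regions more in p52 density (48.7 against 107.0 reads per kb) than in p50 density (105.7 against 92.98). RelA counts were low in both, with medians of 8 and 14 reads per region, and a link of RelA to p50 was not tested. More RelB than RelA reads were present in 52.1% (49.8 to 54.4) of the members compared with 71.2% (69.9 to 72.4) of the balanced regions. These raw counts were not scaled to the RelB and RelA totals, so each share alone does not compare the binding of RelB and RelA. The RelA fold enrichments in the 20 regions were between 3.31 and 9.71. The highest, on chromosome 16 from 4242661 to 4244529, had 139 p50, 68 p52, 50 RelB and 42 RelA reads and was called for all 4 subunits, as were 10 of the 20. RelA and RelB calls coincided in 13 of the 20. The highest RelA count of the 20, at 843 reads, was that of the chromosome 20 region of high input background described below.

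In 4 members, the p50 pileup was more than 5 times as high relative to the fold enrichment as in the median p50 region, which marks a high input background. The one on chromosome 17 from 28173379 to 28174162 held 325 p50, 187 p52, 375 RelB and 291 RelA reads at a p50 fold enrichment of only 6.30, and another, on chromosome 20 from 26136497 to 26138665, held 898, 597, 825 and 843 reads at 6.16. Their reads of all subunits are high together, and the number of members without regions of high p50 or p52 background was 1780.

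The share of regions that passed the ratio threshold was highest at promoters. Ratio and distance are the values of the rule, so these shares are descriptive. The difference between the p50 and p52 antibodies cannot be told apart from them. Where the region overlapped the TSS, 67.6% (65.7 to 69.4) of the regions had a ratio of at least 0.7, and the share was 25.9% (24.2 to 27.6) at 1 to 10 kb, 19.97% (18.8 to 21.1) at 10 to 50 kb, 19.2% (17.5 to 20.97) at 50 to 100 kb, 18.5% (16.8 to 20.4) at 100 to 250 kb and 17.2% (14.9 to 19.9) beyond 250 kb. The decline beyond 10 kb was slight, and the intervals of neighbouring bins overlapped. Over the same bins the share skewed to p52 rose from 1.06% (0.726 to 1.55) at the TSS to 27.0% (25.7 to 28.3) at 10 to 50 kb and 36.3% (33.2 to 39.6) beyond 250 kb. The members lay a median of 47894 bp from the TSS (44661 to 51750), and the balanced regions 48029 bp (46246 to 49708), and 488 of them were over 100 kb away.

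**Figure D4:**
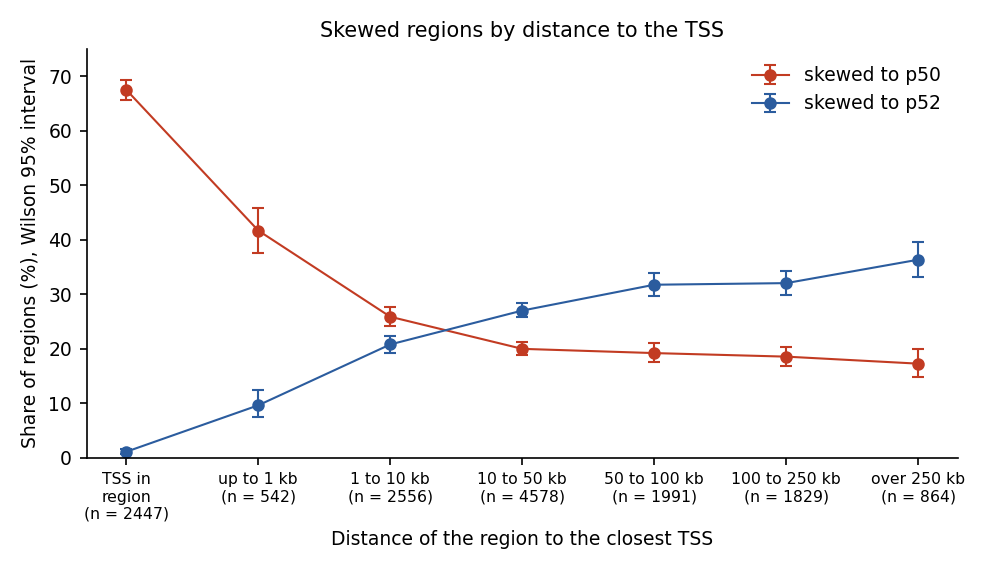
Share of regions skewed to p50 (red) and to p52 (blue) by distance to the closest TSS, with 95% Wilson intervals and the number of regions in each bin. The p50 share falls from 67.6% at the TSS to 19.97% at 10 to 50 kb and changes little beyond, and the p52 share rises from 1.06% to 36.3%. Both shares are descriptive, since ratio and distance are the values of the rule.

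Members lay inside an annotated gene in 772 cases (43.3%, 41.0 to 45.6), somewhat less often than balanced regions (47.5%, 46.1 to 48.9) and p52-skewed regions (48.4%, 46.5 to 50.2). Members inside genes had a median p50 fold enrichment of 15.7 (15.04 to 16.4) and members outside genes 15.3 (14.6 to 15.8), and their median read ratios were 1.18 and 1.17, and both pairs differed by less than their intervals. Whether such a region lies in an exon or an intron was not determined, since the table gives only the distance to the gene.

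The members were narrow and isolated. Their median width was 632 bp (615 to 652), compared with 836 bp (821 to 853) for balanced, 781 bp (763 to 800) for p52-skewed and 1239 bp (1210 to 1262) for promoter p50-skewed regions. Width went with the calls, at 571 bp (557 to 586) in members called for p50 alone and 795 bp (765 to 825) in members called for p50 and p52. The narrow width is thus no trait independent of the choice. Another region of the union lay within 10 kb of 24.1% (22.2 to 26.1) of the members, whereas this share was 46.1% (44.7 to 47.5) in balanced and 45.4% (43.6 to 47.3) in p52-skewed regions. It was 24.6% (22.7 to 26.6) in promoter p50-skewed regions. The median distance to the nearest region was 33894.5 bp (31217 to 38170) compared with 12678.5 bp (11709 to 13789) in balanced regions. When both the regions and their neighbours were restricted to those called for p50, the shares were 20.6% (18.7 to 22.5) of 1721 members and 36.4% (34.9 to 38.1) of 3487 balanced regions. Among regions of 500 to 1000 bp, the share with a neighbour within 10 kb was 23.9% (21.4 to 26.7) of 986 members and 42.7% (40.8 to 44.7) of 2494 balanced regions.

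For the 430 members with a neighbour within 10 kb, the nearest region was balanced in 222 cases (51.6%), another member in 103 (23.95%) and p52-skewed in 73 (17.0%). The remaining neighbours were not distal regions. Of all distal regions, 50.9% were balanced, 19.3% were members and 29.9% were p52-skewed. Regions with a close neighbour had another make-up. Of the 3859 distal regions with a neighbour within 10 kb, 2171 were balanced, 430 were members and 1258 were p52-skewed. Across the 2237 pairs of adjacent distal regions up to 10 kb apart, the read ratios correlated with a Spearman correlation of 0.29 and a Pearson's r of 0.29. The points share their libraries and the correlation is descriptive.

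The share of distal regions that were members differed between chromosomes. It was highest on chromosome 19, with 68 of 181 distal regions (37.6%, 30.8 to 44.8), and the next were chromosomes 22 (23.7%, 17.3 to 31.5) and 17 (23.4%, 19.4 to 27.9). Chromosomes 3 (14.4%, 11.9 to 17.4) and 13 (15.8%, 10.99 to 22.1) stood at the low end among the chromosomes other than Y. Chromosome 19 is known as gene-dense and GC-rich. The base composition of the regions was not measured here, and its part in the result was not tested.

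The members were spread over many genes. Of 1868 genes that were the closest gene or held the closest TSS of a member, 1591 had 1 member, 227 had 2, 39 had 3, 8 had 4 and 3 had 5. Names were found for 256 of the 1868 identifiers. A pair of the genes with 5 members had names. *BCAR3*, which encodes an adaptor protein of integrin and growth factor signalling, had 5 members among its 6 distal regions. Their p50 reads were 58, 101, 56, 60 and 38 and their p52 reads 8, 21, 15, 29 and 12 from the lowest to the highest coordinate, none was called for p52, and the RelB reads were between 3 and 20. *PCDH1*, which encodes a protocadherin of cell adhesion, had 5 members among 5 distal regions, and its neighbour *ARAP3* had 4 among 4. *CAMK1D*, which encodes a calcium/calmodulin-dependent kinase, had 4 members among 11 distal regions, at 84, 68, 136 and 36 p50 against 29, 33, 84 and 7 p52 reads. The third gene with 5 members, ENSG00000096654, and ENSG00000038532, with 4 members among 17 distal regions, are given by identifier only.

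The members of *ARAP3* and *PCDH1* formed the longest unbroken run of p50-skewed regions, which was singled out after its values were seen. It consisted of 7 consecutive regions over 105317 bp on chromosome 5, from 141104879 to 141210195. The p50 reads in coordinate order were 143, 68, 239, 50, 104, 444 and 141, against 72, 19, 121, 19, 35, 259 and 58 p52 reads, with read ratios from 0.91 to 1.92. The p50 fold enrichment reached 43.6 in the region with 444 p50 reads, which lay 9210 bp from *PCDH1*. RelB had 6 to 47 reads and RelA 3 to 26, and neither was called in any of the 7, whereas p52 was called in 4. Elsewhere the longest runs were 5 runs of 4 members, and 1254 members stood alone between regions of other kinds.

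Among 164 genes of 14 lists, 66 had an identifier with a name and 47 of these had a distal region. The lists cover the NF-κB system, families of immune, apoptosis, proliferation and transcription factor genes, and a housekeeping reference. They were not limited to known NF-κB targets. Members were assigned to 15 genes, 14 of them without the housekeeping gene *ACTB*. These 14 had 19 members, and over the lists without housekeeping genes 8.56% (5.55 to 13.0) of 222 distal regions were members, compared with 15.9% (14.3 to 17.6) of the 1965 distal regions of all genes with a name and 19.3% of all distal regions. Of the 20 members, with *ACTB*, each had a p50 call, 9 a p52 call, 1 a RelB call and 0 a RelA call.

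Among the NF-κB subunit genes, *NFKB1*, which encodes p105 and its product p50, had 2 members among 6 distal regions, whereas the distal regions of *RELB* and *REL*, 1 each, were not members. One *NFKB1* member lay inside the gene, 97367 bp from the TSS, with 74 p50, 45 p52, 8 RelB and 8 RelA reads. The other lay outside the gene, 124052 bp from the *NFKB1* TSS, with 72, 44, 6 and 11 reads. Its closest gene was ENSG00000109323, at 5548 bp. Neither was called for p52, and their ratios of 0.84 and 0.83 were close to the threshold. The IκB genes *NFKBIA* and *BCL3* had 1 distal region each and 0 members.

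Among the feedback regulators, *TNFAIP3*, which encodes the deubiquitinase A20, had 2 members among 15 distal regions and *TNIP1*, which encodes an A20-binding protein, 1 among 3. The *TNFAIP3* members lay 55674 bp upstream of the gene, with 54 p50, 35 p52, 9 RelB and 8 RelA reads, and 57640 bp downstream of its TSS, with 71, 41, 2 and 5 reads. The *TNIP1* member lay inside the gene with 105 p50 and 41 p52 reads and was called for p50 alone. The counting interval of its ratio, 0.95 to 2.05, lay above the threshold, which was not so for either *TNFAIP3* region.

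Among the apoptosis regulators, the antiapoptotic *BCL2* had 3 members among 9 distal regions and the proapoptotic *BCL2L11* 1 among 5. A pair of *BCL2* members, 28 bp apart inside the gene and 113715 and 111978 bp from its TSS, held 168 and 141 p50 against 110 and 74 p52 reads, with 37 and 6 RelB reads. The remaining one, 56835 bp from the gene, held 32 p50 and 5 p52 reads. The *BCL2L11* member held 64 p50, 32 p52, 20 RelB and 9 RelA reads.

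Transcription factor genes held single members. The one closest to *BATF*, which encodes an AP-1 family factor of lymphocytes, was the strongest member of any listed gene, with a p50 fold enrichment of 48.2 and 143 p50, 66 p52, 11 RelB and 15 RelA reads. *ATF3*, a stress-induced factor of the ATF family, had 1 of 4 distal regions, with 277 p50, 129 p52, 54 RelB and 51 RelA reads. The B cell factor genes *PAX5* and *FOXP1* had 1 of 8 and 1 of 16, with 58 and 47 p50 against 37 and 27 p52 reads, and *RUNX1*, a regulator of blood cell development, had 1 of 7, with 139 and 84. The T cell factor gene *GATA3* had 1 of 16, with 57 and 24, at 10189 bp from the TSS. *ETS1*, a lymphoid transcription factor gene, had 0 members among 20 distal regions, *BCL11A* 0 among 9 and *PRDM1* 0 among 7.

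Of the secreted and surface proteins, the cytokine gene *IL6* had 2 members among 12 distal regions, *CSF1*, which encodes a macrophage growth factor, 1 among 2, and *CXCR5*, which encodes the chemokine receptor of follicular B cells, 1 among 2. The *IL6* members lay 30567 and 21870 bp upstream of the *IL6* TSS and held 70 and 52 p50 against 37 and 22 p52 reads. Their closest gene was ENSG00000179428, at 30080 and 21383 bp. The *CXCR5* member lay inside the gene with 105 p50, 52 p52, 15 RelB and 9 RelA reads. *CXCR4* and *CD44* had 0 members among 9 distal regions each. The region 24291 bp upstream of *ACTB*, which encodes β-actin, held 273 p50, 133 p52, 71 RelB and 19 RelA reads and was the only member of a listed gene called for RelB.

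**Figure D5:**
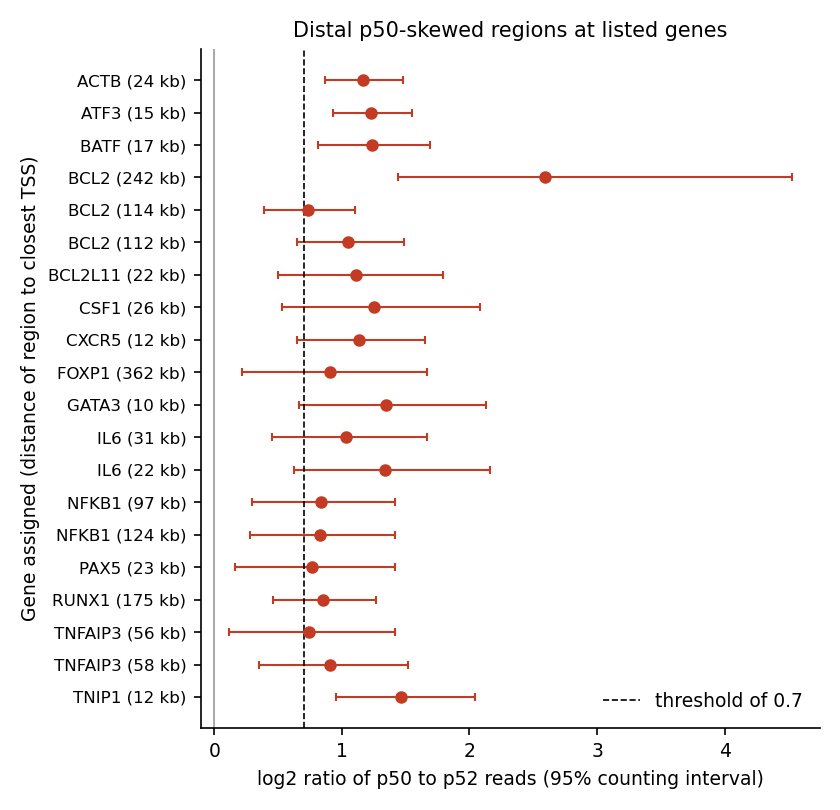
Read ratio (log2 of p50 to p52 reads) with its 95% counting interval for the 20 distal p50-skewed regions at listed genes, with the distance to the closest TSS beside the gene. That TSS belongs to another gene for the *BATF*, *ATF3* and *RUNX1* regions and for the *BCL2* region outside the gene. All lie above the threshold of 0.7 (dashed) by choice, but the lower bound of the interval exceeds it only for *ATF3*, *BATF*, *TNIP1*, *ACTB* and the *BCL2* region outside the gene.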

How the data were processed

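ChIP-seq of p50, p52, RelA and RelB (2 replicates each) and of input DNA (6 libraries) from L1236 cells was analysed from the authors' table of union regions on hg18. The submitters' processing notes name CASAVA, Bowtie and SAMtools. The authors mapped reads uniquely, removed duplicates, randomly reduced libraries to 10000000 reads, called peaks with MACS on each replicate and on merged replicates, and compared replicates by the irreproducible discovery rate (IDR). For both RelB libraries the authors list fewer than 10000000 mapped reads.

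The deposited counts give the whole reads of each region, summed over merged replicates and not normalized, and whether they precede the reduction is not stated in the sources used here. The deposited fold enrichment is a ratio of ChIP to input at the summit. The deposited pileup is a coverage signal at the summit. The authors gave the IDR as a fraction and the MACS FDR as a q-value, with stated thresholds of 0.05, although every IDR in the table is under 0.01. The deposited signal value of a replicate is a score behind the IDR, of unnamed scale, and the table does not tell which belongs to which replicate. Distances to the closest gene and TSS are the authors', from Ensembl 54, and 58 regions without a TSS distance were in no class.

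The read ratio used all reads in the union as the scale for each subunit and 1 added read. Read densities are reads per kb of region width. The counting interval of a ratio is a 95% exact binomial interval, and shares have Wilson 95% intervals. Both cover counting error only. Functions were tested on simulated data. The members, comparison classes and gene lists were chosen with earlier results of these data known. Named were the 10 members with the highest p50 fold enrichment, the 10 with the highest ratio, the 3 on either side of the threshold, the 5 members with the highest RelB or RelA fold enrichment, the 10 genes with the most members, and listed genes with a member. In the text, the sets are shown by selected regions and ranges. Gene names came from identifier pairs in the study's supplementary gene lists, which hold part of the genes and favour regulated ones. The distance bins, width bins and read-density bins were set after seeing the data.

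No region sequences are printed and no motif or GC content was analysed, since no hg18 genome was used here. Of 24 amplicons placed from the primer list, 0 lay in a member. Alternatives were other ratio and distance thresholds, another added count and scale, filters on reads, background and calls, and single signal values. Tools were scipy 1.17.1, numpy 2.4.6, pandas 2.3.3 and matplotlib 3.10.9 under Python 3.11.15.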

Additional observations from a re-analysis of the deposited data

How the results depend on the processing

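The number of distal p50-skewed regions was 1784. It was 870 with a distance over 50 kb, and 586 with summit pileups, which could be compared only over the regions called for both subunits, where the reads gave 522, and it stayed within 1.5 times under the other alternatives, with 1191 at a ratio of at least 1 and 2232 at 0.5. With a ratio of at least 0.5, the share called for p52 was 36.7%, called for RelB 10.6% and with a neighbour within 10 kb 26.3%, and the median width was 659.5 bp. With a ratio of at least 1, these values were 18.7%, 5.96%, 20.3% and 602 bp. With a distance over 50 kb, the share called for p52 was 25.7%, inside a gene 40.3% and with a neighbour 20.5%, the width was 596 bp and the log2 ratio of median RelA density was -0.41. With a distance over 5 kb, the share with a neighbour was 26.3%. At least 50 p50 and p52 reads together gave a RelB share of 6.58% and a width of 655 bp. The RelB share was 5.29% when a p50 call was required, 6.50% with calls of at least 5-fold enrichment only, and 5.28% over regions called for p50 or p52, an alternative chosen after seeing the data. Per region instead of per kb, the log2 ratios of the medians were -1.15 for RelB and -0.81 for RelA, which carry the difference in width. Within 50 kb, 58.6% of the members had a neighbour. The RelB and RelA densities stayed below those of balanced regions under each of the 12 alternatives tried. Taken singly, the signal values gave median percentiles of 38.6 to 45.6 for p50 and 30.7 to 35.3 for p52. No paired analysis was possible because the counts and calls were deposited for merged replicates and come from no test. Precision is limited by few reads per region, most for RelA and RelB, with medians of 8 and 9 reads in the members.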
